A study of Mus musculus with 10 samples.

Results

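Kupffer cells are the macrophages that live in the sinusoids of the liver, and 36 genes that mark them or macrophages in general were followed in cultures of primary mouse hepatocytes. The members were the rows of the count table whose gene name was on a list of Kupffer cell and macrophage genes, and all 36 were found among 56748 genes. Resident Kupffer cell genes (Clec4f, Vsig4, Cd5l, Timd4, Marco and Cd163) were set beside genes shared by all macrophages, genes of monocyte-derived cells and genes of lipid-associated macrophages.

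The hepatocytes were isolated by liver perfusion from wild-type mice and kept overnight in medium conditioned by cultured adipocytes that had themselves been starved overnight. Inguinal fat of male mice fed an obesogenic diet for 6 months, with 3 mice stated, gave the stromal vascular cells from which the adipocytes were grown. They had been differentiated with IBMX, insulin, dexamethasone, indomethacin and rosiglitazone, and both groups share this history. In Mttp_flox_CM the fat donors carried floxed Mttp alleles, and in Mttp_KO_CM they lacked Mttp in adipose tissue (A-Mttp-/-), so in both groups the treated hepatocytes themselves were wild type. Mttp encodes the microsomal triglyceride transfer protein. The promoter that drove the deletion, the age of the mice, the sex of the hepatocyte donors and any pooling of hepatocytes from several animals were not stated. Every library received medium that had been on adipocytes, so there is no plain medium control.

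Each group had 5 poly-A selected RNA sequencing libraries, with summed counts from 14199798 to 17178131. In each group 1 library has a column number that no label gives, and it is called the unnumbered library. Whether the 5 were separate cultures or separate animals is not stated, and the p-values here reflect only how these libraries vary, possibly for technical reasons. With 3 fat donor mice stated, the 5 libraries of a group cannot each stand for a separate fat donor. If the libraries of a group shared a batch of conditioned medium, that batch cannot be told apart from genotype. The p-values therefore do not measure how the knockout effect varies between fat donors. Levels are given as CPM, counts scaled to the TMM-adjusted library size, and a change is the log2 ratio of Mttp_KO_CM to Mttp_flox_CM with its standard error (SE). A gene counted as changed when its adjusted p in edgeR's quasi-likelihood test was under 0.05, with Benjamini-Hochberg adjustment over all 14183 genes tested. Values listed per library follow the order replicate 1, 2, 3, 4 and unnumbered, and ± is the SD over the 5 libraries of a group.

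Most resident macrophages of the liver are seeded before birth and depend on the growth factor receptor encoded by Csf1r and on the transcription factor PU.1, encoded by Spi1. They clear bacteria, complement-coated particles, hemoglobin and dying cells from portal blood, and their identity fades when they lose contact with hepatocytes, stellate cells and sinusoidal endothelium. Monocytes recruited to an injured liver carry Ccr2 and Cx3cr1, and the macrophages that gather around lipid in a fatty liver carry Trem2 and Gpnmb. Hepatocyte cultures prepared by perfusion commonly hold some of these other liver cells.

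Start-site sequences are shown for the short purine-rich core that PU.1-type factors recognise. RefSeq sequences (build GRCm38.p6, which is not the GRCm39 build of the counts) were found for 28 of the 36 members, from 250 bases before to 50 after the start. The letters GAGGAA, on either strand, were in this window for 16 of 28 members (57.1%) and for 31.3% of the 27025 genes with such a sequence. In 12 members the RefSeq start was also a transcript start in GENCODE, and 6 of these 12 held the core in the 120 bases before it. Those 120 bases are given for 6 of the 12, picked after their letters were seen to show genes of different roles with and without the core, 5′ to 3′ on the gene's strand, with GAGGAA or its reverse complement TTCCTC in capitals. Vsig4, Cd5l and Marco are resident Kupffer cell genes, Fcgr1 encodes a high-affinity IgG receptor and Trem2 a lipid-sensing receptor, all lower in Mttp_KO_CM. Spic encodes a relative of PU.1 and is shown as a member that did not pass the test.
Vsig4 (chrX:96293439-96293558, minus strand): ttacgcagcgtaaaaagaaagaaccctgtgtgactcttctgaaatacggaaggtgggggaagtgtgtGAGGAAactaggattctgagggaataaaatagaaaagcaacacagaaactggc
Cd5l (chr3:87357761-87357880, plus strand): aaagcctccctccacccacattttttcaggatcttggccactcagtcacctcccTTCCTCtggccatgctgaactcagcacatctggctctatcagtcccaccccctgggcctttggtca
Marco (chr1:120505025-120505144, minus strand): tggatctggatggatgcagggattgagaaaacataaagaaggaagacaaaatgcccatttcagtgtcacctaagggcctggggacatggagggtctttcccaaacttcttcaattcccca
Fcgr1 (chr3:96293970-96294089, minus strand): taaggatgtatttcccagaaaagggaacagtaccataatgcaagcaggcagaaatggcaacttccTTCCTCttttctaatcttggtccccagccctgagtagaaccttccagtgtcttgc
Trem2 (chr17:48346281-48346400, plus strand): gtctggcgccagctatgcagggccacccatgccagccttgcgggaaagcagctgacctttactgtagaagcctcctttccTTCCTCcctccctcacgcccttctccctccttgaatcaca
Spic (chr10:88683024-88683143, minus strand): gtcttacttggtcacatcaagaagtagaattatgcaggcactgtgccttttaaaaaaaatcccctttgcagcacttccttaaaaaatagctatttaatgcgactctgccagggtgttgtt

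The core began 53 bases before the start in Vsig4, 66 in Cd5l, 55 in Fcgr1 and 40 in Trem2. Marco and Spic did not hold it in the stretch shown, and Marco held it elsewhere in its window. The letters GAAANNGAA, a core of IRF factors searched on both strands, were in 7 of 28 members (25.0%) and 9.76% of all genes. TGANTCA (AP-1) was in 4 members (14.3%, all genes 8.97%), TCATGTG (MITF and TFE family) in 3 (10.7%, all genes 4.31%) and TTGCNNAA (C/EBP) in 3 (10.7%, all genes 12.2%). Among members with a sequence, GAGGAA was in 14 of the 22 lower in Mttp_KO_CM and in 1 of the 2 higher, Cd68. It was also in 1 of the 2 that did not pass, Itgam, and in 0 of the 2 not tested. These matches describe letters in a window and were not tested as binding sites or for a link to the changes.

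Macrophage transcripts as a group were lower in cultures given knockout medium. Of the 36 members, 28 were lower in Mttp_KO_CM, where 18.1% of all genes tested were lower, and 3 were higher, where 18.2% of all genes were higher. The 3 that rose were Cd14, Cd68 and Lgals3, which encode an endotoxin co-receptor, a lysosomal glycoprotein and galectin-3. Spic, Cd74 and Itgam did not pass, and Cx3cr1 and Ccr2 had too few counts to be tested. Aif1 passed the filter on low counts only through Mttp_flox_CM, where it was higher. The median log2 change of the 34 members tested was -0.49, and that of all genes tested was 0.00. A change of at least 1.5-fold downward was seen for 13 members and for 5.05% of all genes. In 21 members every Mttp_KO_CM library lay below every Mttp_flox_CM library (12.7% of all genes), and in 3 members every one lay above (13.0%). Counting both directions, 36.4% of all genes were called and 25.7% had groups that did not overlap. In bulk RNA, fewer macrophages in a culture and less RNA of these genes per macrophage cannot be told apart.

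**Figure D1:**
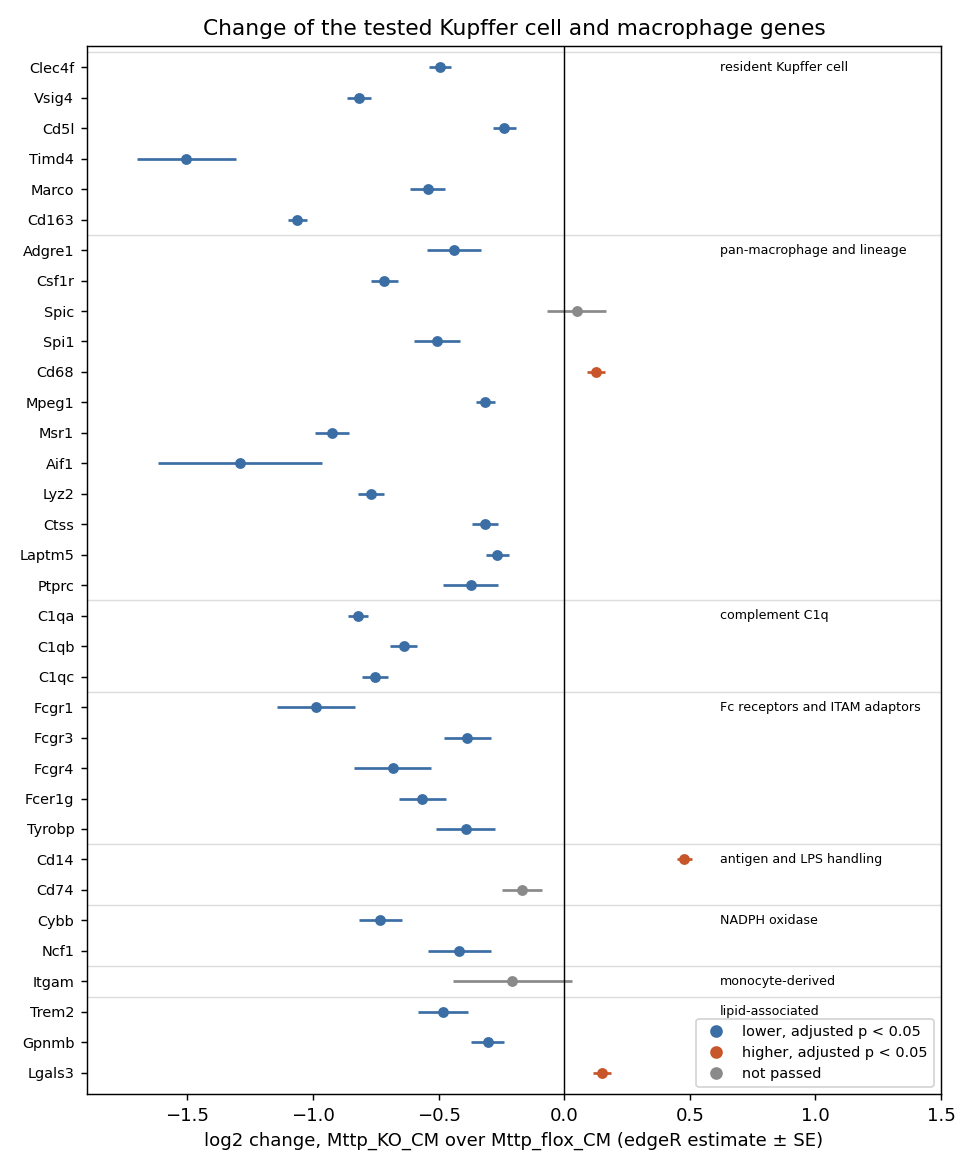
Log2 change of the 34 members tested, Mttp_KO_CM over Mttp_flox_CM, as points with bars of 1 SE, ordered by role. The 28 blue points lie below 0 and the 3 orange points (Cd68, Cd14 and Lgals3) above it, while Spic, Cd74 and Itgam are grey.

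All 6 resident Kupffer cell genes fell (18.1% of all genes fell), by 0.24 to 1.50 on the log2 scale. Cd163 encodes the receptor that takes up hemoglobin bound to haptoglobin. It was at 135, 140.2, 142, 148 and 135 CPM in Mttp_flox_CM and 66.2, 66.9, 66.9, 64.5 and 71.2 CPM in Mttp_KO_CM. The groups were far apart, and Cd163 fell 2.09-fold (log2 change -1.06, with SE 0.037 and edgeR adjusted p = 2.5e-17). Vsig4 encodes an immunoglobulin-type receptor for complement fragments on opsonised particles. Its values were 54.8, 55.3, 53.3, 57.1 and 55.4 CPM in Mttp_flox_CM and 28.5, 30.4, 33.8, 30.3 and 33.6 CPM in Mttp_KO_CM. No library overlapped here either (log2 change -0.82, with SE 0.048 and edgeR adjusted p = 8.5e-13). Timd4, which binds phosphatidylserine on dying cells, was the scarcest of the 6, at 3.49, 3.01, 3.35, 3.91 and 2.93 CPM in Mttp_flox_CM and 1.38, 1.05, 0.947, 0.956 and 1.57 CPM in Mttp_KO_CM. Its counts per library were only 43 to 63 and 15 to 22, so its size is less certain than that of the others (log2 change -1.50, with SE 0.2 and edgeR adjusted p = 1.2e-06).

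The other 3 resident genes fell less. Clec4f, a galactose-binding lectin used to mark mouse Kupffer cells, was at 119, 119, 122, 126 and 119 CPM in Mttp_flox_CM and 78.2, 80.4, 93.0, 87.1 and 91.3 CPM in Mttp_KO_CM (log2 change -0.49, with SE 0.043 and edgeR adjusted p = 1.1e-09). Marco, a scavenger receptor for bacteria, was at 79.6, 80.2, 71.2, 94.1 and 82.9 CPM in Mttp_flox_CM and 45.5, 55.1, 63.1, 57.1 and 58.8 CPM in Mttp_KO_CM (log2 change -0.54, with SE 0.069 and edgeR adjusted p = 6.6e-07). Every Mttp_KO_CM library was below every Mttp_flox_CM library for both, and Marco was lowest in Mttp_KO_CM replicate 1. Cd5l, a secreted scavenger protein of macrophages, was the most abundant of the 6, at 176, 194, 166, 197 and 197 CPM in Mttp_flox_CM and 144, 149, 166, 159 and 170.0 CPM in Mttp_KO_CM. It fell by 0.24 on the log2 scale (SE 0.047 and edgeR adjusted p = 0.00026), and the unnumbered Mttp_KO_CM library was above Mttp_flox_CM replicate 3. The summed level of the 6 genes was 559 to 626 CPM in Mttp_flox_CM and 364 to 426 CPM in Mttp_KO_CM, a difference of 32.0%.

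In the build of the counts (GRCm39), Cd163 (ENSMUSG00000008845) lies on chromosome 6, plus strand, bases 124281615 to 124307486 and Clec4f (ENSMUSG00000014542) on chromosome 6, minus strand, bases 83621524 to 83633169. Vsig4 (ENSMUSG00000044206) lies on chromosome X, minus strand, bases 95290809 to 95337044, and Timd4 (ENSMUSG00000055546) on chromosome 11, plus strand, bases 46701627 to 46735159. Marco (ENSMUSG00000026390) is on chromosome 1, minus strand, bases 120402267 to 120432753 and Cd5l (ENSMUSG00000015854) on chromosome 3, plus strand, bases 87265188 to 87278380. These are full gene spans, longer than the gene length given with the counts (5461 bases for Cd163). Counts are per gene, and whether genes with overlapping spans share counted bases was not checked.

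**Figure D2:**
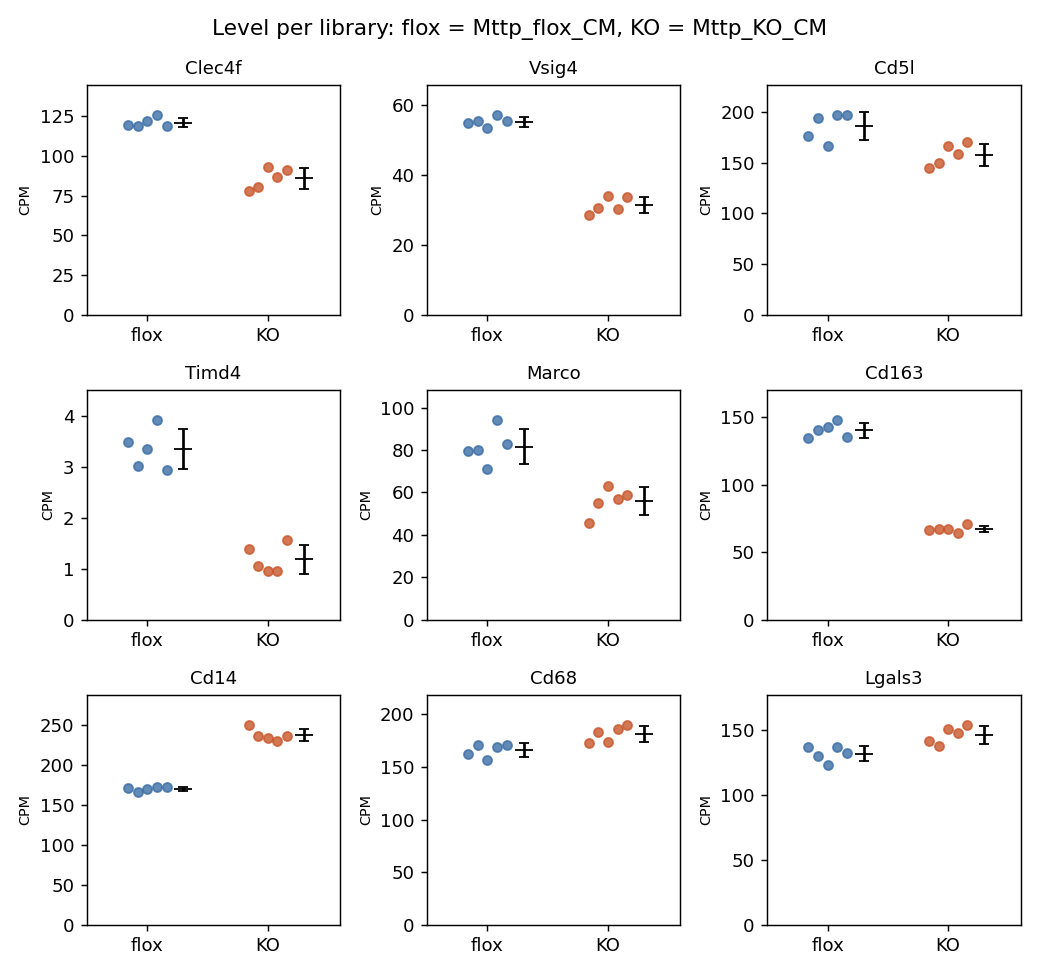
CPM in each library for the 6 resident Kupffer cell genes and the 3 members that rose, with the mean and SD (bars) beside the points of each group (5 libraries each) and each axis starting at 0. The Mttp_KO_CM points of Vsig4, Cd163, Clec4f, Marco and Timd4 lie below all Mttp_flox_CM points, those of Cd5l overlap, and those of Cd14, Cd68 and Lgals3 lie above.

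Of the 12 pan-macrophage and lineage genes, 10 fell and 1 rose (18.1% and 18.2% of all genes). Csf1r encodes the receptor for CSF1 and IL-34 on which macrophages depend, and was at 42.8, 48.7, 43.5, 50.3 and 47.5 CPM in Mttp_flox_CM and 28.4, 26.4, 28.8, 30.1 and 28.1 CPM in Mttp_KO_CM. The groups did not overlap (log2 change -0.72, with SE 0.052 and edgeR adjusted p = 5.2e-11). The span of Csf1r overlaps that of Hmgxb3 on the opposite strand. Without strand information, reads of any shared stretch cannot be told apart. Adgre1, which encodes the surface marker F4/80, was at 10.8, 13.2, 14.4, 16.1 and 17.3 CPM in Mttp_flox_CM and 10.9, 9.82, 9.41, 11.6 and 11.3 CPM in Mttp_KO_CM. It fell by 0.44 (SE 0.11 and edgeR adjusted p = 0.0019) with wide spread in Mttp_flox_CM, where replicate 1 was at the level of the Mttp_KO_CM libraries. Spi1, the gene of PU.1, was at 10.6, 13.4, 11.4, 12.1 and 12.7 CPM in Mttp_flox_CM and 8.01, 7.72, 8.64, 9.30 and 8.63 CPM in Mttp_KO_CM, without overlap (log2 change -0.51, with SE 0.092 and edgeR adjusted p = 9.2e-05).

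Spic, the PU.1 relative needed by iron-recycling macrophages, did not follow Spi1. It was at 5.58, 6.29, 5.02, 6.45 and 6.88 CPM in Mttp_flox_CM and 5.98, 6.45, 6.09, 7.07 and 5.64 CPM in Mttp_KO_CM, and the groups overlapped throughout (log2 change 0.05, with SE 0.12 and edgeR adjusted p = 0.79). Msr1, a scavenger receptor for modified lipoproteins, fell from 35.8 ± 2.98 to 18.8 ± 1.78 CPM (log2 change -0.92, with SE 0.066 and edgeR adjusted p = 3.7e-11), and Lyz2, the lysozyme of myeloid cells, from 87.6 ± 5.29 to 51.4 ± 4.40 CPM. Lyz2 was at 88.2, 89.1, 79.1, 93.7 and 87.9 CPM in Mttp_flox_CM and 47.1, 48.1, 55.1, 49.6 and 57.0 CPM in Mttp_KO_CM, and no library overlapped (log2 change -0.77, with SE 0.053 and edgeR adjusted p = 1.4e-11). Its near-identical copy Lyz1 can share reads with it. Smaller falls were found for the pore-forming protein gene Mpeg1 (-0.31), the lysosomal protease gene Ctss (-0.32), the lysosomal membrane gene Laptm5 (-0.27) and the pan-leukocyte phosphatase gene Ptprc (-0.37). Ptprc did not pass on log2 of FPKM plus 1 or plus 0.1 (limma adjusted p = 0.053 and 0.059). Aif1, a calcium-binding protein gene of macrophages, fell by 1.29 from 1.47 ± 0.438 CPM, with 4 to 16 counts per Mttp_KO_CM library.

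The 3 C1q genes fell side by side, where 18.1% of all genes fell. They encode the chains of C1q, the recognition molecule of the classical complement pathway, made mainly by macrophages. They lie next to each other on the minus strand of chromosome 4, C1qb from 136607440 to 136613498, C1qc from 136617115 to 136620376 and C1qa from 136623228 to 136626114. C1qa was at 58.5, 59.0, 58.0, 58.2 and 58.3 CPM in Mttp_flox_CM and 34.1, 31.4, 33.7, 33.4 and 32.5 CPM in Mttp_KO_CM (log2 change -0.82, with SE 0.041 and edgeR adjusted p = 2.2e-14). C1qb was at 68.1, 65.1, 61.7, 65.7 and 63.7 CPM in Mttp_flox_CM and 34.8, 41.2, 44.4, 43.3 and 44.5 CPM in Mttp_KO_CM (log2 change -0.64, with SE 0.054 and edgeR adjusted p = 7.1e-10), and C1qc at 62.0, 59.0, 54.9, 64.2 and 55.2 CPM in Mttp_flox_CM and 34, 35.5, 33.5, 34.5 and 38.2 CPM in Mttp_KO_CM (log2 change -0.75, with SE 0.051 and edgeR adjusted p = 1.1e-11). No library of either group overlapped for any chain. The 3 chains together had 175 to 189 CPM in Mttp_flox_CM and 103 to 115 CPM in Mttp_KO_CM, a difference of 39.8%.

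All 5 genes of Fc receptors and their signalling adaptors fell, from low levels (18.1% of all genes fell). Fcer1g encodes the common gamma chain through which Fc receptors signal. Its values were 11.4, 11.8, 11.3, 12.8 and 11.5 CPM in Mttp_flox_CM and 6.70, 7.72, 8.76, 8.54 and 8.13 CPM in Mttp_KO_CM, without overlap (log2 change -0.56, with SE 0.093 and edgeR adjusted p = 2.7e-05). Tyrobp encodes the adaptor DAP12 that serves TREM2, and was at 11.9, 8.97, 9.98, 11.3 and 7.77 CPM in Mttp_flox_CM and 8.74, 7.16, 7.04, 8.54 and 6.49 CPM in Mttp_KO_CM. Its groups overlapped, with replicates 1 and 4 high in both, and the change was smaller (log2 change -0.39, with SE 0.12 and edgeR adjusted p = 0.011). The IgG receptor genes Fcgr1, Fcgr4 and Fcgr3 fell by 0.99, 0.68 and 0.39, to 2.43 ± 0.268, 2.89 ± 0.449 and 11.8 ± 1.67 CPM. Fcgr3 shares sequence with Fcgr2b, a receptor of sinusoidal endothelium. Fcgr2b was at 129 ± 5.09 CPM in Mttp_flox_CM and 55.6 ± 2.67 CPM in Mttp_KO_CM (log2 change -1.21). The counts of Fcgr3 and its fall are therefore less certain, and the part of shared reads in them was not tested.

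Cybb and Ncf1 encode the membrane and a cytosolic part of the phagocyte NADPH oxidase, which makes superoxide. Cybb was at 18.0, 19.7, 22.0, 22.6 and 22.6 CPM in Mttp_flox_CM and 11.3, 10.8, 14.5, 12.6 and 13.8 CPM in Mttp_KO_CM, without overlap (log2 change -0.73, with SE 0.086 and edgeR adjusted p = 2.1e-07). Ncf1 fell by 0.42 (SE 0.13) from 6.52 ± 0.57 to 4.87 ± 0.736 CPM, and overlaps Gtf2ird2 on the opposite strand.

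Cd14 went the other way. It encodes the co-receptor that hands endotoxin to TLR4, and hepatocytes express it as well as macrophages. Its values were 171, 166, 170.0, 173 and 173 CPM in Mttp_flox_CM and 250.4, 237, 234, 230.0 and 236 CPM in Mttp_KO_CM. Every Mttp_KO_CM library was above every Mttp_flox_CM library, and Cd14 rose 1.39-fold (log2 change 0.48, with SE 0.029 and edgeR adjusted p = 1.5e-12). Cd68 was at 163, 171, 156, 169 and 171 CPM in Mttp_flox_CM and 172, 184, 173, 186 and 189.8 CPM in Mttp_KO_CM. It rose by 0.13 with a gap between the groups of less than 2 CPM (SE 0.035 and edgeR adjusted p = 0.0054), and did not pass when counts were scaled by library size alone (log2 0.09, edgeR adjusted p = 0.055). Cd74, the invariant chain of MHC class II, was at 12.7, 13.6, 13.8, 14.5 and 16.9 CPM in Mttp_flox_CM and 12.4, 12.8, 12.4, 13.3 and 12.7 CPM in Mttp_KO_CM, with overlap and no call (log2 change -0.17, with SE 0.082 and edgeR adjusted p = 0.11).

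The lipid-associated genes did not move in 1 direction. Trem2 was at 12, 12, 10.7, 13.0 and 13.5 CPM in Mttp_flox_CM and 9.20, 6.81, 9.53, 8.85 and 9.28 CPM in Mttp_KO_CM. It fell by 0.48 (SE 0.099, edgeR adjusted p = 0.00037), with Mttp_KO_CM replicate 2 the lowest library. Gpnmb, a membrane glycoprotein of lysosome-rich macrophages, was at 113, 99.9, 89.5, 106 and 112 CPM in Mttp_flox_CM and 75.2, 72.3, 90.9, 93.1 and 89.9 CPM in Mttp_KO_CM. The groups overlapped, and Gpnmb fell by 0.31 (SE 0.065 and edgeR adjusted p = 0.00057). Lgals3, the gene of the galectin that binds damaged lysosomes, was at 137, 130.4, 123, 137 and 132 CPM in Mttp_flox_CM and 142, 137, 151, 148 and 154 CPM in Mttp_KO_CM. All Mttp_KO_CM libraries were higher, by a narrow margin (log2 change 0.15, with SE 0.037 and edgeR adjusted p = 0.0024).

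Genes of monocyte-derived cells had few counts. Itgam, the CD11b integrin chain, had 20 to 28 counts per library in Mttp_flox_CM and 10 to 30 in Mttp_KO_CM, and did not pass (log2 change -0.21, with SE 0.24 and edgeR adjusted p = 0.54). Ccr2, the receptor that draws monocytes out of bone marrow, had 3, 2, 1, 0 and 2 counts in Mttp_flox_CM and 3, 0, 3, 1 and 0 in Mttp_KO_CM. Cx3cr1, the fractalkine receptor, had 8, 6, 1, 12 and 3 counts and 0, 0, 0, 1 and 0 counts. For Cx3cr1 the ratio of Mttp_KO_CM to Mttp_flox_CM was 0.0325, with an exact 95% interval from 0.000796 to 0.195 that covers counting error only. The annotated Cx3cr1 gene spans several other genes, so its few reads are uncertain. Without the filter on low counts Cx3cr1 was tested too and the number of members lower was 29.

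Per unit of gene length, Cd68 and Cd14 were the highest members in both groups. Cd68 was at 131 ± 5.22 FPKM in Mttp_flox_CM and 143 ± 6.25 FPKM in Mttp_KO_CM, and Cd14 at 97.9 ± 1.64 FPKM in Mttp_flox_CM and 136 ± 4.32 FPKM in Mttp_KO_CM. In Mttp_flox_CM their ranges did not overlap, and in Mttp_KO_CM they did. Cd5l came next in Mttp_flox_CM, overlapping Cd14 and above Lgals3 without overlap (90.8 ± 6.91 against 70.6 ± 3.14 FPKM), and in Mttp_KO_CM the pair overlapped (77.0 ± 5.33 against 78.4 ± 3.62 FPKM). Lyz2, C1qb, C1qa, Clec4f, Marco and Vsig4 followed in Mttp_flox_CM, from 66.2 down to 37.0 FPKM, and each overlapped the next except C1qa, which lay above Clec4f. Adgre1 was at 4.41 ± 0.783 FPKM in Mttp_flox_CM and 3.26 ± 0.295 FPKM in Mttp_KO_CM, far below the other Kupffer cell markers but Timd4, and Spi1 was at 4.44 ± 0.402 FPKM in Mttp_flox_CM and 3.12 ± 0.229 FPKM in Mttp_KO_CM. The lowest were Itgam, Cx3cr1 and Ccr2, at 0.314, 0.087 and 0.0159 FPKM in Mttp_flox_CM. FPKM values are the authors' and include a library scaling of which no description was found.

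**Figure D3:**
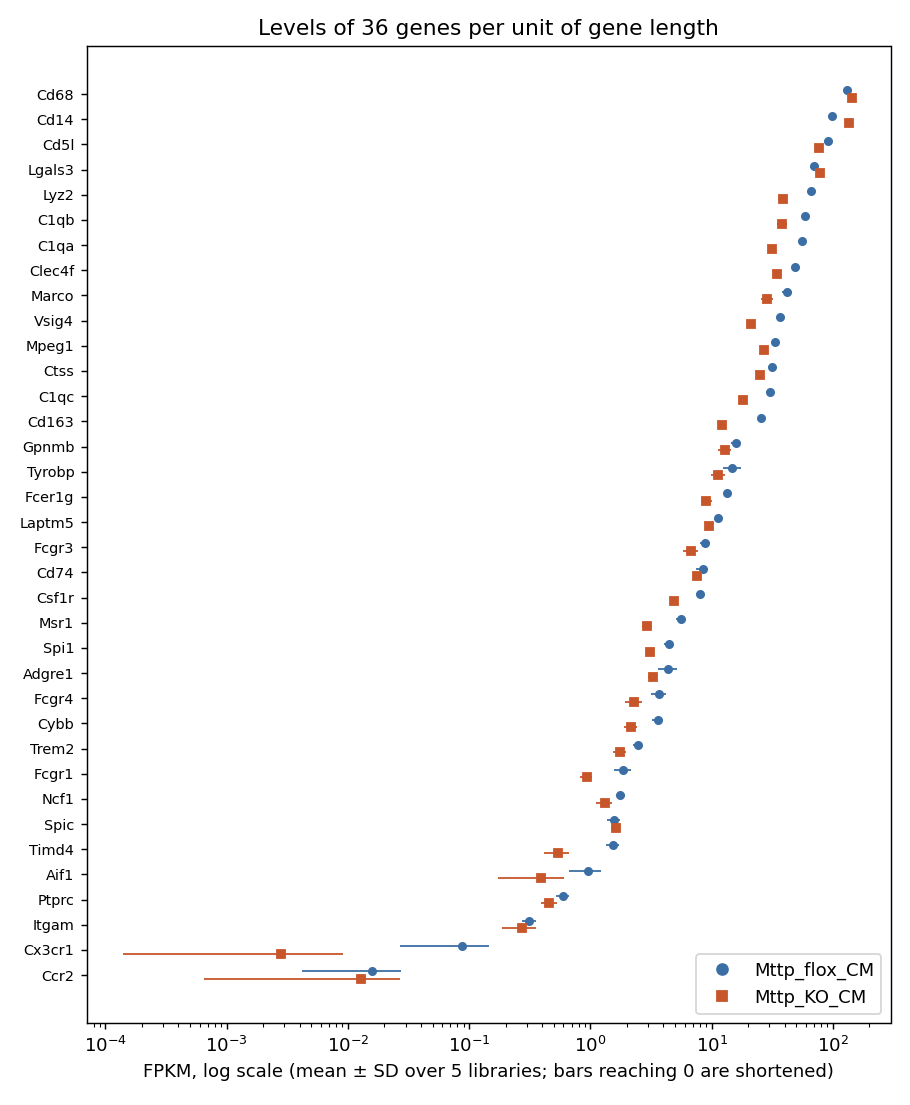
Mean FPKM with SD over 5 libraries for the 36 members, on a log axis, circles for Mttp_flox_CM and squares for Mttp_KO_CM, ordered by the Mttp_flox_CM level. Cd68 and Cd14 are at the top, the C1q genes and most resident Kupffer cell genes lie between 12 and 60 FPKM, and Cx3cr1 and Ccr2 are near the floor.

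Members differed in how far they moved relative to each other. Within each library the count of 10 members was divided by that of Adgre1, with 0.5 added to each, so that library size cancels, and the mean log2 ratios were compared by an exact two-sided permutation test over the libraries. The smallest p this design allows is 0.0079, and p-values were adjusted over the 10 pairs. Cd163 fell further than Adgre1, with log2 ratios of 3.30 ± 0.25 and 2.66 ± 0.14 in Mttp_flox_CM and Mttp_KO_CM (exact p = 0.0079, adjusted p = 0.02). The log2 ratios of Cd14, Cd68 and Lgals3 to Adgre1 rose by 0.90, 0.55 and 0.57, each without overlap of the groups (exact p = 0.0079 and adjusted p = 0.02 each). From the same counts these 3 genes were called higher, and Adgre1 and Csf1r lower. A rise of their ratio to either gene restates those calls and is not separate support. Vsig4, C1qa and Csf1r fell further than Adgre1 by 0.40, 0.40 and 0.29 (exact p = 0.024, 0.016 and 0.024, adjusted p = 0.034, 0.032 and 0.034). Their calls were lost (exact adjusted p between 0.053 and 0.068) when any library was left out other than the unnumbered Mttp_flox_CM library and Mttp_KO_CM replicate 3. Without both unnumbered libraries none of the ratios passed, those of Cd163, Cd14, Cd68 and Lgals3 included. Their differences were -0.72, 0.86, 0.49 and 0.51 (exact adjusted p = 0.057 each). Fewer libraries raise the smallest p the test allows, so a lost call here does not by itself show a weaker difference. The ratios of Clec4f, Trem2 and Gpnmb to Adgre1 differed by -0.08, -0.07 and 0.11 and did not pass (exact p = 0.6, 0.63 and 0.49). Set against Csf1r in place of Adgre1, the ratios of Clec4f, Trem2 and Gpnmb were higher in Mttp_KO_CM, by 0.22, 0.22 and 0.40 (exact adjusted p = 0.034, 0.04 and 0.032). Against Csf1r the differences of Vsig4 and C1qa were -0.10 and -0.11 and did not pass (exact adjusted p = 0.19 and 0.062), while those of Cd163, Cd14, Cd68 and Lgals3 were -0.35, 1.19, 0.84 and 0.86 (exact adjusted p = 0.02 each).

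**Figure D4:**
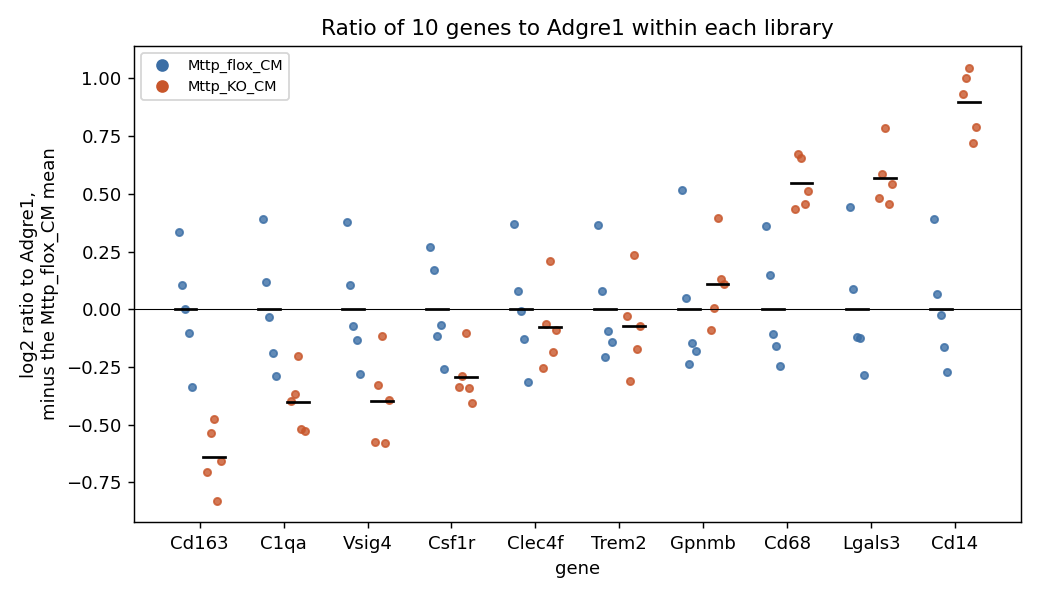
Log2 ratio of each of 10 members to Adgre1 in each library, minus the Mttp_flox_CM mean of that ratio, with black bars at the group means (5 libraries per group). The Mttp_KO_CM points of Cd163 lie below and those of Cd68, Lgals3 and Cd14 above all Mttp_flox_CM points, and the other 6 overlap.

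A longer list of 89 other macrophage genes was read from the same test. Of the 79 tested, 46 were lower in Mttp_KO_CM (18.1% of all genes), 3 were higher (18.2% of all genes) and 30 did not pass, with a median log2 change of -0.36. The transcription factor gene Maf, which helps to hold macrophages in a non-dividing state and is also expressed by sinusoidal endothelium, fell from 88.8 ± 5.98 to 43.8 ± 2.64 CPM (log2 change -1.02, with SE 0.05 and edgeR adjusted p = 2e-14). Id3, a regulator of Kupffer cell identity, fell by 0.29. Nr1h3, which encodes the sterol sensor LXRα and is also active in hepatocytes, was at 68.6 ± 4.15 and 67.4 ± 3.71 CPM and did not pass (log2 change -0.03, with SE 0.047 and edgeR adjusted p = 0.71). Among growth factors, Csf1, a ligand of the receptor encoded by Csf1r, was at 76.1 ± 4.12 and 76.8 ± 2.89 CPM (log2 change 0.01, with SE 0.042 and edgeR adjusted p = 0.84), and Il34, the other ligand, was at 1.13 ± 0.134 and 1.19 ± 0.286 CPM (log2 change 0.08, with SE 0.24 and edgeR adjusted p = 0.83).

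Of 10 pattern and complement receptor genes 8 fell and 1 rose, and of 12 integrin and immunoglobulin-like receptor genes tested 7 fell and 5 did not pass. Of 16 genes of myeloid signalling and cytoskeleton 12 fell and 0 rose. Of 8 other Kupffer cell genes 5 fell, and 3 did not pass, namely Folr2 (log2 change -0.38), Slc11a1 and Slc40a1. Over all genes tested, 18.1% were lower and 18.2% higher. Clec12a, an inhibitory lectin, fell from 4.25 ± 0.591 to 1.36 ± 0.365 CPM (log2 -1.65). The mannose receptor gene Mrc1 fell by 1.14 and the scavenger receptor gene Stab1 by 0.80, both genes that sinusoidal endothelium also expresses. Sirpa, the receptor for the "do not eat me" signal CD47, fell by 0.77, the beta-glucan receptor gene Clec7a by 0.79, and the Kupffer cell lectin gene Clec1b by 0.62. The nicotinamide dinucleotide hydrolase gene Cd38 and the syndecan gene Sdc3 fell by 0.71 and 0.52, and Il1rn, which encodes the interleukin-1 receptor antagonist, by 0.79 from 27.4 ± 1.40 to 15.8 ± 1.36 CPM.

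The 3 that rose were Cd36, Clec4n and Ccl2. The fatty acid transporter gene Cd36, which hepatocytes also express, rose from 540.0 ± 24.6 to 948 ± 53.2 CPM (log2 change 0.81, with SE 0.035 and edgeR adjusted p = 1.8e-15). Clec4n, which encodes the fungal receptor dectin-2, rose from 4.24 ± 0.424 to 7.28 ± 2.12 CPM (log2 change 0.79, with SE 0.17 and edgeR adjusted p = 0.00054), with overlap, since the Mttp_KO_CM libraries ran from 4.28 to 9.28 CPM. The monocyte attractant gene Ccl2 rose by 0.15 (SE 0.037), also with overlap. Of 8 MHC class II and oxidase genes tested, 2 fell and 6 did not pass, near the 18.1% of all genes that fell. Of those 2, Ncf4 had 9 to 12 counts per Mttp_KO_CM library. It passed the filter on low counts only through Mttp_flox_CM, where it was higher. Of the 13 cytokine and polarization genes 7 had too few counts to be tested. Among these, Tnf, Il1b, Il6, Il10 and Nos2 were at most 0.764 CPM in any library, and Ccl4 reached 1.12 CPM in Mttp_flox_CM.

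Markers of other cells moved as well, beside 18.1% of all genes lower and 18.2% higher. All 10 markers of sinusoidal endothelium fell (median log2 -1.02), and their summed level was 1768 to 1887 CPM in Mttp_flox_CM and 1004 to 1060.2 CPM in Mttp_KO_CM. Among them, Clec4g had 9 to 14 counts per Mttp_KO_CM library. It passed the filter on low counts only through Mttp_flox_CM, where it was higher. Of 8 stellate cell markers 6 fell and 0 rose, with sums of 81.6 to 89.5 CPM in Mttp_flox_CM and 46.6 to 51.7 CPM in Mttp_KO_CM. Of 9 hepatocyte markers 6 fell, 2 rose and 1 did not pass, and their sums of 45602 to 47391 CPM in Mttp_flox_CM and 39395 to 40394 CPM in Mttp_KO_CM were the largest of any list. Alb, the albumin gene that defines hepatocytes, was at 29137 ± 507 CPM in Mttp_flox_CM and 25098 ± 594 CPM in Mttp_KO_CM. The part of these differences in the macrophage results was not tested. Dendritic cell markers Xcr1, Flt3 and Siglech had no counts in any library, and 2 of 6 were tested and fell, Zbtb46 and Clec9a. Their sums were 20.4 to 23.9 CPM in Mttp_flox_CM and 12.9 to 14.8 CPM in Mttp_KO_CM. The annotated Clec9a gene overlaps Clec1b.

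Other blood cells were near 0. Among T and NK cell markers 6 of 8 had no counts in any library (Cd3d, Cd3g, Cd8a, Nkg7, Ncr1 and Gzma), and the summed level of the 8 was at most 0.279 CPM. Among neutrophil markers 3 of 8 had no counts (Ly6g, Mpo and Retnlg), and the sums were 1.50 to 2.30 CPM in Mttp_flox_CM and 1.6 to 2.50 CPM in Mttp_KO_CM, nearly all from Csf3r, which did not pass. The 5 B cell markers summed to 1.99 to 3.91 CPM in Mttp_flox_CM and 2.03 to 2.64 CPM in Mttp_KO_CM, mostly Ighm. Of the adipocyte markers Lep and Cfd had no counts, and 1 of 6 was tested, Fabp4, which rose by 0.13 and is also made by macrophages and endothelium. The adipocyte sums were 90.5 to 105 CPM in Mttp_flox_CM and 102 to 117 CPM in Mttp_KO_CM.

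The summed level of all 36 members was 1790.5 to 1971 CPM in Mttp_flox_CM and 1495 to 1616 CPM in Mttp_KO_CM. Leaving out Cd14, Cd68 and Lgals3, a choice made after their values were seen, the sums were 1341 to 1492 CPM in Mttp_flox_CM and 931 to 1036 CPM in Mttp_KO_CM. Within Mttp_KO_CM, replicates 1 and 2 had the lowest sums and the unnumbered library the highest, and no library of the 2 groups overlapped.

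**Figure D5:**
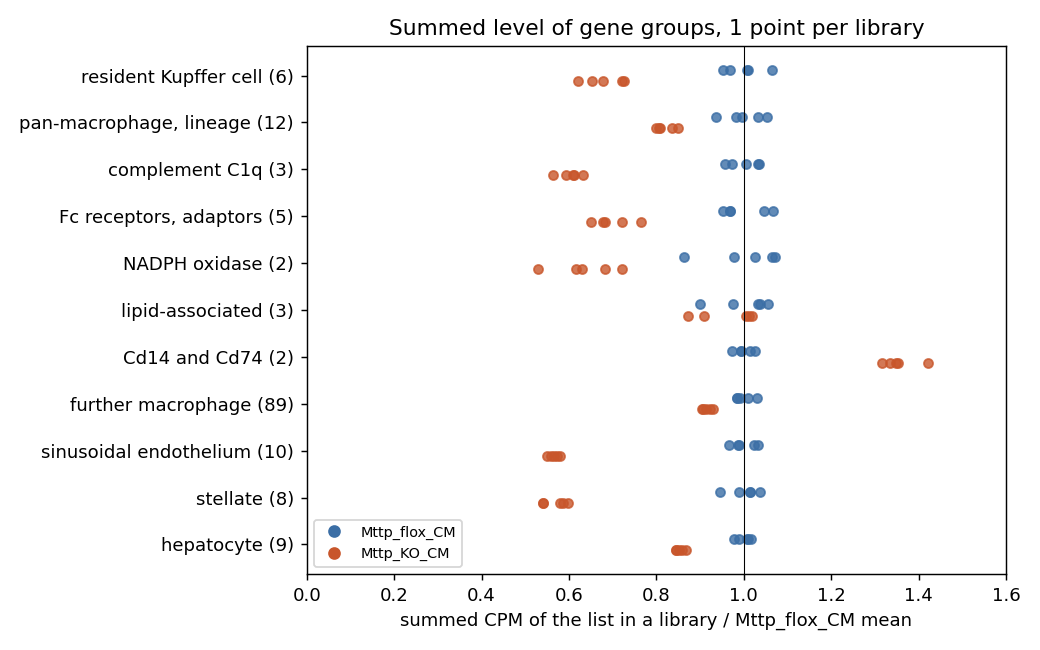
Summed CPM of each gene group in each library, divided by the Mttp_flox_CM mean of that sum (number of genes in parentheses, 5 libraries per group). The resident Kupffer cell and C1q sums of Mttp_KO_CM lie left of all Mttp_flox_CM points, as do the endothelial and stellate sums, the sums of Cd14 and Cd74 lie to the right, and the lipid-associated sums overlap.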

How the data were processed

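Poly-A selected RNA of cultured hepatocytes was sequenced in 10 libraries, 5 per group. The authors deposited whole-number counts per gene and FPKM values. Per the submitters' processing notes, HISAT2 2.0.5, featureCounts 1.5.0-p3 and genome build GRCm39 were used. The strand setting, the treatment of multi-mapped reads and the annotation release were not given in the sources used here. Of the columns, 8 matched labels and 2 gave only the group. No library pair of a group agreed within counting noise (chi-square per degree of freedom from 2.04 to 4.11).

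The test used edgeR 4.0.16 under R 4.3.3 (filterByExpr with minimum count 10 and minimum total 15, TMM, quasi-likelihood test on group). It was also run on simulated counts in which few genes changed, each by more than the smaller changes reported here. That run therefore does not cover changes as small or as widespread as in these data. limma 3.58.1 and DESeq2 1.42.0 served as alternatives. Depth limits genes with few counts most. The members and lists were chosen with earlier results of these data known, and counts over them are descriptions. Of the further macrophage list, the 12 genes with the smallest p, those that rose, and Csf1, Il34, Nr1h3 and Id3 are named, except 1 that is not reported here. Any other gene was named with its values known. The listed hepatocyte marker Tf was not matched.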

Additional observations from a re-analysis of the deposited data

Results flagged for a closer look

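Within a group of 5 libraries, 4 values stood far from the rest, out of 146 groups of values looked at, where chance gives about 7.3. Msr1 was at 41.0 CPM in the unnumbered Mttp_flox_CM library, where the nearest other library was at 35.6. Clec7a was at 24.7 CPM in the same library, with the nearest at 21.8. Trem2 was at 6.81 CPM in Mttp_KO_CM replicate 2, with the nearest at 8.85. Cx3cr1 was at 0.0637 CPM in Mttp_KO_CM replicate 4, a count of 1 where the other 4 libraries had 0.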

How the results depend on the processing

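The 28 members lower and 3 higher were recounted under 19 alternatives. The number lower was between 27 and 29 and the number higher 3, or 2 with library size alone, under which 1982 of all genes were higher and 3217 lower (38.1% of calls, against 50.1% with TMM). Of the further macrophage genes 41 to 49 were lower and 3 higher. With each library left out in turn the members' median ran from -0.52 to -0.44, and it was -0.38 on log2 of FPKM plus 1, which shrinks low genes such as Aif1 (-0.49) and Clec12a (-0.50). Replicate numbers did not pair the libraries: deviations of same-numbered libraries correlated by -0.0082 to 0.0609, and not every library correlated best with its own number. With a replicate block on the 8 numbered libraries 28 members were lower and 3 higher, and 2325 of all genes were lower and 2326 higher.

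For ratios to Adgre1 the 8 libraries cannot bring a paired exact p below 0.125. Without pairing, the smallest p they allow is also above the 0.0079 of the full set. The paired differences with the replicate block, equal to those without the unnumbered libraries, were -0.47 for Vsig4, -0.72 for Cd163, -0.33 for Csf1r, -0.44 for C1qa, 0.49 for Cd68, 0.86 for Cd14 and 0.51 for Lgals3, and none passed either way (exact adjusted p from 0.057 to 0.082 without the block). With each library left out the ranges were -0.47 to -0.30 for Vsig4, -0.36 to -0.23 for Csf1r and -0.47 to -0.30 for C1qa. Against Csf1r the differences were 0.22 for Clec4f, 0.22 for Trem2, 0.40 for Gpnmb, -0.10 for Vsig4 and -0.11 for C1qa. The cause of these shifts was not tested beyond the change of reference. Depth kept Cx3cr1 and Ccr2 from being tested and limits Timd4, Aif1 and Itgam among those tested.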

Other observations

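C1qa was unusually even between libraries of Mttp_flox_CM, with a coefficient of variation of 0.659%, below the 3.35% that counting alone gives at its mean count. Adgre1, with 155 to 259 counts per Mttp_flox_CM library, varied by 17.6% where counting gives 6.75%. Cd5l varied by 7.48% where counting gives 1.88%.

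The 2 members of the ETS factor family, Spi1 and Spic, were not called alike, with log2 changes of -0.51 and 0.05, and the difference between them was not tested. The chemokine genes Ccl3 and Ccl4 were at 2.55 ± 0.509 and 2.05 ± 0.553 CPM and at 0.772 ± 0.214 and 0.365 ± 0.179 CPM. The divalent metal transporter gene Slc11a1 and the iron exporter gene Slc40a1, both of iron-recycling macrophages, had log2 changes of -0.10 and -0.04 and did not pass, and hepatocytes also express Slc40a1.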
